A study of Homo sapiens with 6 samples.

Results

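The genes described here are 35 out of 26850 genes with a symbol on the primary chromosomes. Most belong to the sterol and fatty acid synthesis programme driven by the sterol regulatory element binding proteins (SREBPs). The 35 were chosen by name. The RefSeq transcript entries of the deposited tables were matched to gene symbols, and the entry with the largest mean signal stood for each gene. All 35 were found and all had an adjusted p in each of the 3 deposited comparisons. By role they comprise 19 genes of sterol synthesis and sterol transport, 9 of fatty acid and glycerolipid synthesis, 4 regulators, and 3 genes of sterol efflux or of the type driven by liver X receptors (LXR).

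RNA sequencing was performed on U2OS 2-6-3 cells, 1 clonal human osteosarcoma line that carries an array of tet operators next to an inducible reporter. All cells were grown in low-glucose medium with doxycycline-free fetal bovine serum and were kept overnight under white light. The untransfected group received neither reagent nor plasmid. The mock group was transfected with TetR-RFP and YFP, and the sample group with PHR-YFP-VP16, CIBN-TetR and mCherry-MCP. Both used the Roche Xtreme gene reagent. PHR and CIBN are plant proteins that bind each other under blue light, which brings the VP16 activation domain to the array. Each group had 2 libraries, called a (deeper) and b (shallower) because the files do not tell which replicate number each carries. Reagent, plasmid DNA and expressed protein cannot be told apart in a comparison with untransfected cells, and all groups were illuminated, so an effect of light cannot be seen. The labels do not say that the 2 libraries of a group were separate cultures, so p-values measure the spread between these libraries, which may be technical.

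SREBPs are transcription factors made as membrane proteins of the endoplasmic reticulum. When sterols are plentiful, SCAP, their escort protein, is held back by INSIG proteins. When sterols fall, SCAP carries the SREBPs to the Golgi, where proteases free the part that enters the nucleus and switches on genes of sterol and fatty acid synthesis. LXRs work in the opposite sense. They are activated by oxidized sterols and raise the efflux pumps ABCA1 and ABCG1, the ubiquitin ligase MYLIP and also SREBF1, the SREBP gene most tied to fatty acid synthesis. SREBF2 is the SREBP gene most tied to sterol synthesis.

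The promoters of 4 members are shown because SREBPs act together with the factor NF-Y, whose site is CCAAT. INSIG1 and STARD4 were the genes of largest change among INSIG1 and the sterol arm, ACSS2 was the fatty acid gene of largest change in mock cells with a window near its entry, and SREBF2 was added after its sequence was seen. Each window runs from 250 bases before to 50 after a RefSeq gene start (build GRCh38.p14), 5′ to 3′ along the gene, with capitals for CCAAT on either strand, the E-box CACGTG and the sterol regulatory element, searched as TCACCCCAC, with 1 more base at its 5′ end where that also matched, and as the shorter CACCCCAC nested in it. The windows lie at chr7:155297628-155297927 (plus strand) for INSIG1, chr5:111512486-111512785 (minus strand) for STARD4, chr20:34876362-34876661 (plus strand) for ACSS2 and chr22:41832855-41833154 (plus strand) for SREBF2.
INSIG1: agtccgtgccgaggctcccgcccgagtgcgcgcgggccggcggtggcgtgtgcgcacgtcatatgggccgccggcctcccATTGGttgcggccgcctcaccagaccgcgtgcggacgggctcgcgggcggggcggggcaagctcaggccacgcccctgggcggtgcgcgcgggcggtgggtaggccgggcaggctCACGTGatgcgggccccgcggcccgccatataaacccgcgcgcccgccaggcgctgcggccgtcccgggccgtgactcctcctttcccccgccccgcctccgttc
STARD4: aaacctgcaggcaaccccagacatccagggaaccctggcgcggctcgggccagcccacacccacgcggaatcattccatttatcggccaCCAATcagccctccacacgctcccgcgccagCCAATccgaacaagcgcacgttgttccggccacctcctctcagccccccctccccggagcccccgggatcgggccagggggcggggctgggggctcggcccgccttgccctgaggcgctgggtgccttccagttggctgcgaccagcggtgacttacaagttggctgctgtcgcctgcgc
ACSS2: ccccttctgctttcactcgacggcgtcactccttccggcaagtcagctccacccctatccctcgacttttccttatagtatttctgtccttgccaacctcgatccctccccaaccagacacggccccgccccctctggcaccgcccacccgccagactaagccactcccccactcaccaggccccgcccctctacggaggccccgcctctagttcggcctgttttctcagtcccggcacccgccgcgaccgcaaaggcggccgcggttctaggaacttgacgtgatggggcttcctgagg
SREBF2: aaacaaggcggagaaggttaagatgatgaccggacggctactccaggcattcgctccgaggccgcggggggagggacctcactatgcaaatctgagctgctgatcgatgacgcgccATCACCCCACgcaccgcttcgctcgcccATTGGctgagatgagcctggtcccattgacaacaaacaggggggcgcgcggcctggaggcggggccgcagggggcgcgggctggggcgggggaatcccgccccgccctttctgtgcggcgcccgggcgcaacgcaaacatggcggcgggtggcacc
INSIG1 held 1 CCAAT on the minus strand and 1 E-box, STARD4 held 2 CCAAT on the plus strand, and the ACSS2 window held none of the motifs searched. SREBF2 held the whole sterol regulatory element, from base -134 to base -125 before its start, and 1 CCAAT on the minus strand.

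A window within 500 bases of the entry's start was at hand for 29 members, and CCAAT was found in 19 of them, against 34.6% of all 35116 windows. It was in 14 of 16 windows of the sterol arm, those of PMVK and CYP51A1 being the other two, and in 2 of 7 windows of the fatty acid arm, those of ACLY and SCD. CACGTG was found in 5 of 29 members, against 7.26% of all windows, TCACCCCAC in 1, SREBF2, against 0.43%, and CACCCCAC in 2, SREBF2 and ABCA1, against 2.79%. These are matches of letters in a short window and not measured binding, and their relation to the changes below was not tested.

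The libraries held 9579278 to 54177551 reads summed over transcript entries, the shallowest being sample b. The SD over genes of the log2 difference between the 2 libraries of a group was 0.18 in untransfected, 0.21 in mock and 0.42 in sample cells, so comparisons with sample cells were the less precise. Of 8 osteoblast lineage markers 7 were at 10 or more normalized read counts in every library, and SP7, a defining factor of osteoblasts, was at 0.65 in 1 library and at 0 in the others. The 8 summed to 40353 to 41080 in untransfected, 27020 to 27973 in mock and 28321 to 36642 in sample libraries, the highest sample value being that of sample b. SPARC and COL1A1 make up most of that sum, and the other markers did not all follow it. RUNX2 was lower in transfected cells, at 379 and 414 normalized read counts in the untransfected pair, 66.7 and 64.0 in the mock pair, and 93.1 and 132 in the sample pair. ALPL was higher instead, at 57.2 and 68.4, then 764 and 868, then 539.8 and 655 in that order. SPP1 was higher too, at 126 and 120.4, then 196.4 and 170.6, then 148.6 and 148.2. COL1A2 and BGLAP were low, and the untransfected and transfected values of COL1A2 overlapped. BGLAP stood at 28.6 and 40.6 in the untransfected pair, 19.9 and 23.2 in the mock pair, and 33.6 and 16.5 in the sample pair. Its mock pair thus lay below the untransfected pair, whereas its sample pair overlapped it. The adipocyte list (5 genes), the hepatocyte list (4) and the blood cell list (4) had all their genes under 20 in every library, with LEP, CYP7A1, TTR and CD3E at 0 throughout. Their summed levels ran from 1.43 to 17.5 in untransfected, 3.55 to 15.8 in mock and 3.91 to 16.5 in sample libraries. All 4 epithelial markers were present in every library, summing to 12180 to 13162 in untransfected, 14703 to 17532 in mock and 15097 to 17310 in sample libraries. KRT18 was higher in all transfected libraries (8901 to 10648) than in untransfected ones (5154 and 5479), whereas EPCAM was lower (46.4 to 85.1 against 174 and 190.4). The part of these shifts in the changes below was not tested. In these bulk libraries fewer cells that express a gene and less RNA per cell cannot be told apart.

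In mock against untransfected cells 28 of the 35 genes fell and 3 rose, at an adjusted p under 0.05 in the authors' deposited table. Of all 17091 genes tested there 50.9% were called, 23.4% as lower and 27.5% as higher. In sample against untransfected cells 25 fell and none rose in the authors' deposited table, where 37.3% of 15565 genes were called, 17.1% as lower and 20.2% as higher. The median log2 fold change of the 35 was -0.59 in mock and -0.60 in sample cells on the scale of the authors' deposited table, beside medians of all tested genes that round to 0.00. By limma on the read counts recovered from the deposited means, 30 of the 35 were called in mock cells, where 59% of 14891 genes were, and 26 in sample cells, where 50.6% were. Both comparisons use the same 2 untransfected libraries, so their likeness is not independent evidence.

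**Figure D1:**
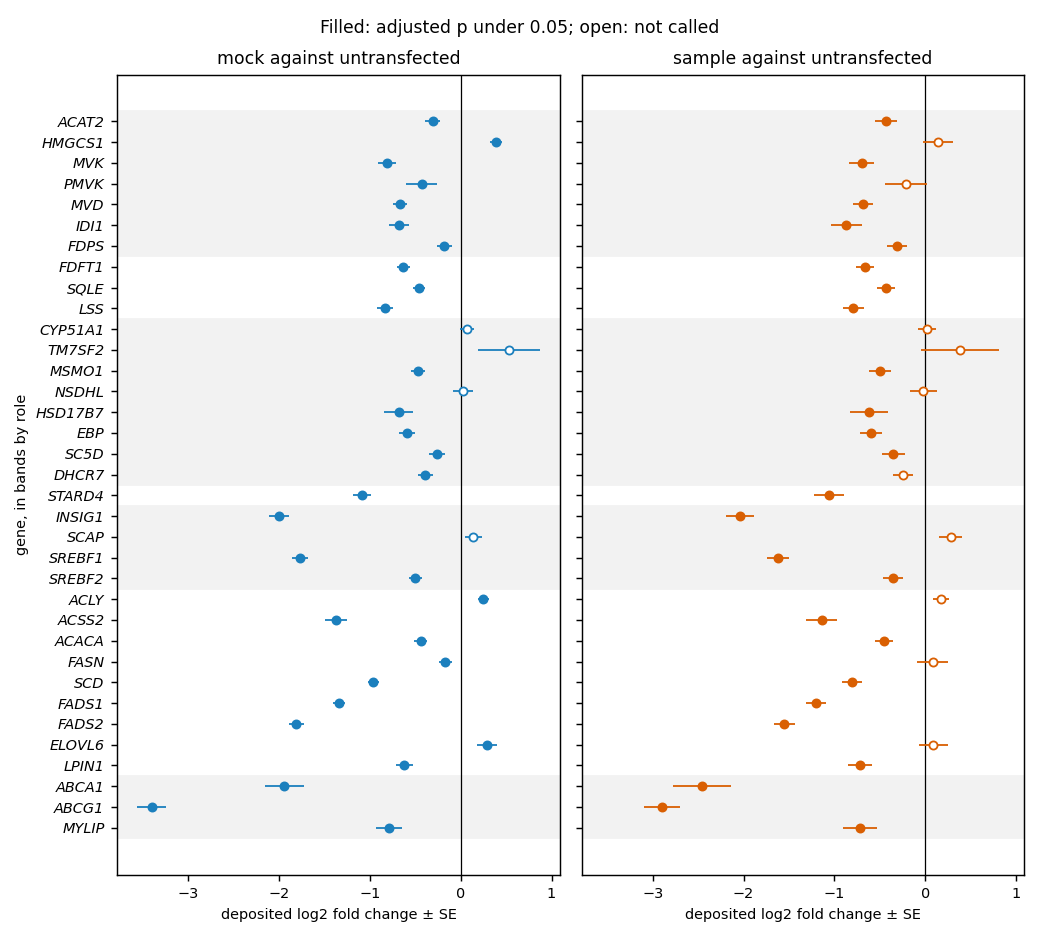
Deposited log2 fold changes (x axis, with SE bars) of the 35 genes (y axis, shaded in bands by role) in mock and in sample cells against untransfected cells, filled where the adjusted p was under 0.05. Of the 35 genes, 28 lie left of 0 and filled in the mock panel and 25 in the sample panel, with ABCG1 farthest left at -3.40 and -2.90.

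Among the regulators INSIG1 and both SREBP genes fell in both groups, and SCAP was not called. INSIG1, which retains SCAP and is itself a target of SREBPs, lies on chromosome 7 from 155297776 to 155310235 (hg38, as are all coordinates of entries). It stood at 1706 and 1600.0 normalized read counts in the untransfected pair, 431 and 369 in the mock pair, and 394 and 375 in the sample pair. Both transfected groups lay far below the untransfected pair and overlapped each other. The mean was 1653 ± 74.6 in untransfected, 400.1 ± 43.9 in mock and 385 ± 13.9 in sample cells (SD, n = 2), that is 4.13-fold lower in mock and 4.30-fold lower in sample cells. The log2 fold change was -2.00 (SE 0.11, adjusted p = 2.94e-69) in mock and -2.04 (SE 0.15, adjusted p = 6.37e-39) in sample cells, in the authors' deposited table.

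SREBF1 (chromosome 17, 17811349 to 17837011) stood at 3791 and 3523 normalized read counts in the untransfected pair, 1115 and 975 in the mock pair, and 1137 and 1215 in the sample pair. It was 3.50-fold lower in mock and 3.11-fold lower in sample cells, and neither transfected pair came near the untransfected one. The log2 fold change of SREBF1 was -1.77 (SE 0.09) in mock and -1.62 (SE 0.12) in sample cells in the authors' deposited table. SREBF2 (chromosome 22, 41833079 to 41907308) changed less, from 8656 and 8839 in the untransfected pair to 5917 and 6279 in the mock pair, and 6419 and 7362 in the sample pair. Its groups did not overlap either, with log2 fold changes of -0.50 (SE 0.07, adjusted p = 2.43e-12) in mock and -0.35 (SE 0.11, adjusted p = 0.00534) in sample cells by the authors' deposited table. SCAP had log2 fold changes of 0.14 (adjusted p = 0.183) and 0.28 (adjusted p = 0.0815) in the authors' deposited table, and was called in neither. The 2 SREBP genes thus fell by different amounts, a difference between genes that was not tested.

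**Figure D2:**
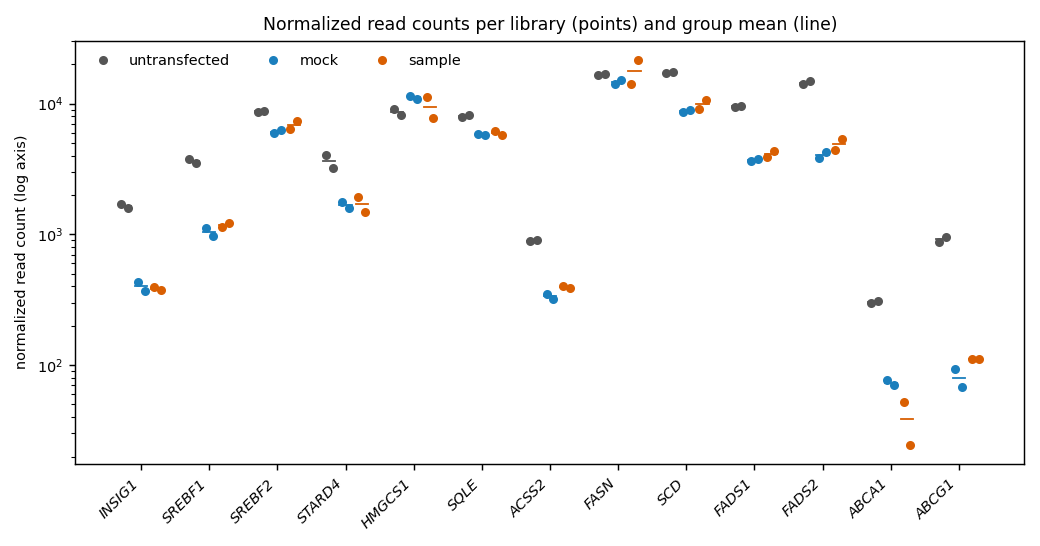
Normalized read counts on a log axis (y) of 13 genes (x) in each library, as points, with the mean of each group of 2 as a line. The mock and sample points of INSIG1, SREBF1, FADS1, FADS2, ACSS2, ABCA1 and ABCG1 all lie below their untransfected points, whereas those of HMGCS1 in mock cells lie above.

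In the sterol arm, 15 of 19 genes fell and 1 rose in mock cells, and 13 fell and none rose in sample cells, in the authors' deposited table. Among all tested genes 23.4% fell and 27.5% rose in mock cells, and 17.1% fell and 20.2% rose in sample cells. The median log2 fold change was -0.46 in mock and -0.43 in sample cells, with a range from -1.09 to 0.53 and from -1.06 to 0.38, in the authors' deposited table. STARD4, which moves sterol between membranes, was the lowest of the arm. It lies on chromosome 5 from 111496033 to 111512597 and stood at 4047 and 3243 normalized read counts in the untransfected pair, 1754 and 1598 in the mock pair, and 1925 and 1482 in the sample pair. The lowest untransfected value was above every transfected one. STARD4 fell 2.18-fold in mock and 2.14-fold in sample cells, with log2 fold changes of -1.09 (SE 0.10) in mock and -1.06 (SE 0.16) in sample cells by the authors' deposited table.

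Of the 7 genes of the mevalonate steps, which build isoprenoid units from acetyl-CoA, 6 fell and HMGCS1 rose in mock cells. In that comparison 23.4% of all tested genes fell and 27.5% rose. MVK, the mevalonate kinase, had log2 fold changes of -0.81 in mock and -0.70 in sample cells in the authors' deposited table. MVD, the decarboxylase, had -0.67 and -0.68, and the isomerase IDI1 had -0.68 and -0.87, in the authors' deposited table. Smaller values were found for the thiolase ACAT2 (-0.31 and -0.43) and the farnesyl diphosphate synthase FDPS (-0.18 and -0.31) in the authors' deposited table. PMVK, the phosphomevalonate kinase, was called in mock cells only (-0.43, adjusted p = 0.0211, against -0.21, adjusted p = 0.513), in the authors' deposited table. That difference between the 2 transfections was not called when tested directly (0.11, SE 0.12, sample against mock, in the authors' deposited table). Deposited values of that comparison are shrunk strongly toward 0, and by limma the PMVK difference was 0.14, with a 95% interval of -0.21 to 0.49.

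HMGCS1, the synthase that makes the precursor of mevalonate, moved against its neighbours. It lies on chromosome 5 from 43287470 to 43313512 and stood at 9070 and 8126 normalized read counts in the untransfected pair, 11427 and 10926 in the mock pair, and 11179 and 7720 in the sample pair. Both mock libraries were above both untransfected ones, whereas the sample pair spanned the untransfected range. The log2 fold change of HMGCS1 was 0.39 (SE 0.07, adjusted p = 3.89e-07) in mock and 0.14 (SE 0.16, adjusted p = 0.559) in sample cells in the authors' deposited table. With upper-quartile scaling of the recovered counts the mock value was 0.28 and no longer called (limma adjusted p = 0.118, range over the alternatives 3.06e-07 to 0.22).

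The 3 genes that lead from farnesyl diphosphate to lanosterol all fell in both groups, beside 23.4% (mock) and 17.1% (sample) of all genes. SQLE, the squalene epoxidase and a rate-limiting step, stood at 7961 and 8118 normalized read counts in the untransfected pair, 5807 and 5716 in the mock pair, and 6135 and 5728 in the sample pair. Both transfected pairs lay below the untransfected pair and overlapped each other, and SQLE was 1.40-fold lower in mock and 1.36-fold lower in sample cells (-0.46, SE 0.07, and -0.43, SE 0.10, as log2 values in the authors' deposited table). The squalene synthase FDFT1 had log2 fold changes of -0.63 and -0.66, and the lanosterol synthase LSS of -0.83 and -0.79, in the authors' deposited table.

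Of the 8 genes that act after lanosterol, 5 fell in mock and 4 in sample cells, and none rose, in the authors' deposited table. Of all tested genes there 23.4% fell in mock and 17.1% in sample cells. HSD17B7 (-0.68 and -0.62), EBP (-0.59 and -0.60) and the oxidase MSMO1 (-0.47 and -0.50) were the lowest, in the authors' deposited table. The desaturase SC5D (-0.26 and -0.35) fell in both, and the last enzyme of the path, DHCR7, was called in mock (-0.39) and not in sample cells (-0.25, adjusted p = 0.0796), in the authors' deposited table. By limma DHCR7 was called in sample cells too (-0.28, adjusted p = 0.0287), and the difference between sample and mock cells was not called (0.15, limma adjusted p = 0.96). CYP51A1, the lanosterol demethylase, was level with untransfected cells at 5437 ± 139, 5631 ± 423 and 5521 ± 103 normalized read counts in untransfected, mock and sample cells (SD, n = 2). NSDHL was likewise at 1303 ± 24.6, 1304 ± 175 and 1303 ± 201 (SD, n = 2) in that order. CYP51A1 had log2 fold changes of 0.07 (SE 0.08) and 0.02 (SE 0.10), and NSDHL of 0.02 (SE 0.11) and -0.02 (SE 0.15), by the authors' deposited table. TM7SF2 was represented by a non-coding transcript entry with 9 to 125 reads per library and was not called. Exons of CYP51A1 and TM7SF2 overlap exons of other genes on the same strand. The part of such reads in their counts was not tested.

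**Figure D3:**
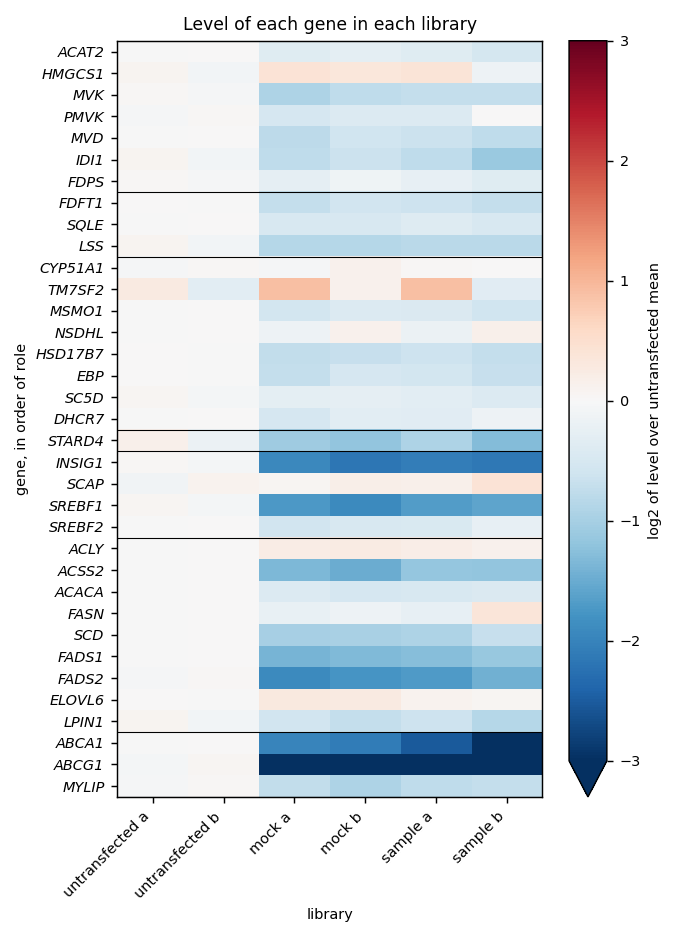
Level of each gene (rows, in order of role) in each library (columns) as the log2 of its normalized read count over the untransfected mean. The median over the sterol arm was -0.51 and -0.41 in the mock and -0.42 and -0.54 in the sample libraries, and the colour scale ends at -3, beyond which ABCG1 lies in all 4 transfected libraries.

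In the fatty acid arm, 7 of 9 genes fell and 2 rose in mock cells, and 6 fell and none rose in sample cells, in the authors' deposited table. Among all tested genes 23.4% fell and 27.5% rose in mock cells, and 17.1% fell and 20.2% rose in sample cells. The median log2 fold change was -0.62 in mock and -0.72 in sample cells in the authors' deposited table, against -0.46 and -0.43 in the sterol arm. Both fatty acid medians are the values of a single gene, LPIN1, and do not show a deeper fall of the arm in sample cells. Compared directly, sample against mock cells had an arm median of 0.12, on values shrunk strongly toward 0. There 6 of 9 genes were above 0, 3 were below, and none was called. Among the genes called, 3 of 9 in the fatty acid arm and 1 of 19 in the sterol arm reached a log2 fold change of -1 or lower in mock cells, and the same counts held in sample cells, in the authors' deposited table. Of all genes 9.98% in mock and 7.38% in sample cells did so. No test was made between the arms, whose genes are not replicates.

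The 3 genes of desaturation all fell. FADS2, which opens the synthesis of long polyunsaturated fatty acids, lies on chromosome 11 from 61828033 to 61867354. It stood at 14013 and 14920.4 normalized read counts in the untransfected pair, 3828 and 4272 in the mock pair, and 4444 and 5361 in the sample pair. It was 3.57-fold lower in mock and 2.95-fold lower in sample cells, with log2 fold changes of -1.81 (SE 0.08) in mock and -1.55 (SE 0.12) in sample cells by the authors' deposited table. Its neighbour FADS1 (chromosome 11, 61799625 to 61817057), the other desaturase of that route, stood at 9367 and 9664, then 3620 and 3800.4, then 3903 and 4340 in untransfected, mock and sample libraries. FADS1 fell 2.56-fold and 2.31-fold (log2 fold changes of -1.34, SE 0.07, in mock and -1.20, SE 0.11, in sample cells by the authors' deposited table). SCD (chromosome 10, 100347015 to 100364831), which makes monounsaturated fatty acids, stood at 17248 and 17435 in the untransfected pair, 8683 and 8861 in the mock pair, and 9085 and 10664 in the sample pair. No transfected library reached the untransfected level of any of these 3 desaturase genes, and SCD was 1.98-fold and 1.76-fold lower (log2 fold changes of -0.96, SE 0.06, in mock and -0.81, SE 0.11, in sample cells by the authors' deposited table).

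The genes that supply and build the chain went several ways. ACSS2, which makes acetyl-CoA from acetate, lies on chromosome 20 from 34876525 to 34927966 and stood at 886 and 902 normalized read counts in the untransfected pair, 352 and 319.9 in the mock pair, and 401 and 391 in the sample pair. Its transfected values were all below its untransfected values, with log2 fold changes of -1.37 (SE 0.12) in mock and -1.14 (SE 0.17) in sample cells by the authors' deposited table. ACLY, which makes acetyl-CoA from citrate, was higher instead, at 13494 and 13596 in the untransfected pair, 15756 and 16180.0 in the mock pair, and 15664 and 14893 in the sample pair. Its log2 fold change was 0.25 (SE 0.06, adjusted p = 0.000151) in mock and 0.17 (SE 0.09, adjusted p = 0.14) in sample cells in the authors' deposited table. The elongase ELOVL6 also rose in mock cells (0.29, adjusted p = 0.0187) and was not called in sample cells (0.09, adjusted p = 0.703), in the authors' deposited table. Upper-quartile scaling of the recovered counts left neither called in mock cells (ACLY 0.14, limma adjusted p = 0.0811, range over the alternatives 0.000121 to 0.0945; ELOVL6 0.18, limma adjusted p = 0.0858, range 0.0074 to 0.125).

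ACACA, the carboxylase that commits acetyl-CoA to fatty acid synthesis, had log2 fold changes of -0.44 and -0.45, and the phosphatidate phosphatase LPIN1 of -0.62 and -0.72, in the authors' deposited table. FASN, the fatty acid synthase (chromosome 17, 82078338 to 82098230), stood at 16471 and 16937 normalized read counts in the untransfected pair, 14208 and 15037 in the mock pair, and 14051 and 21551 in the sample pair. The sample pair lay on both sides of the other groups. FASN was called lower in mock cells (-0.17, SE 0.07, adjusted p = 0.0172) and not in sample cells (0.08, SE 0.17, adjusted p = 0.741), in the authors' deposited table. With limma on the recovered counts the mock value was -0.21 and not called (adjusted p = 0.279, range over the alternatives 0.0143 to 0.541).

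All 3 genes of sterol efflux and LXR type fell in both groups in the authors' deposited table. Of all genes 23.4% fell in mock and 17.1% in sample cells. ABCG1, which exports sterol to lipoprotein particles, had the largest change of the 35. It lies on chromosome 21 from 42219898 to 42297244 and stood at 880.4 and 954 normalized read counts in the untransfected pair, 92.9 and 67.7 in the mock pair, and 112 and 111 in the sample pair. The mean went from 917 ± 51.8 in untransfected to 80.3 ± 17.8 in mock and 112 ± 0.495 in sample cells (SD, n = 2), which is 11.4-fold and 8.22-fold lower. The log2 fold change of ABCG1 was -3.40 (SE 0.16, adjusted p = 2.92e-93) in mock and -2.90 (SE 0.20, adjusted p = 2.08e-43) in sample cells in the authors' deposited table.

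ABCA1, the pump that loads apolipoproteins with cholesterol, lies on chromosome 9 from 104781002 to 104928246. It stood at 298 and 307 normalized read counts in the untransfected pair, 76.6 and 70.5 in the mock pair, and 52.4 and 24.7 in the sample pair, the last resting on 6 reads. All transfected libraries were below all untransfected ones, and ABCA1 was 4.12-fold lower in mock and 7.85-fold lower in sample cells. The log2 fold changes were -1.94 (SE 0.21) in mock and -2.46 (SE 0.32) in sample cells by the authors' deposited table. MYLIP, which marks lipoprotein receptors for breakdown, had -0.79 (SE 0.14) in mock and -0.72 (SE 0.19) in sample cells by the authors' deposited table. The LXR genes themselves, named after their values were seen, NR1H2 (0.18, adjusted p = 0.0936, and 0.14, adjusted p = 0.376) and NR1H3 (0.10, adjusted p = 0.67, and 0.11, adjusted p = 0.767), were not called in mock or sample cells in the authors' deposited table.

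**Figure D4:**
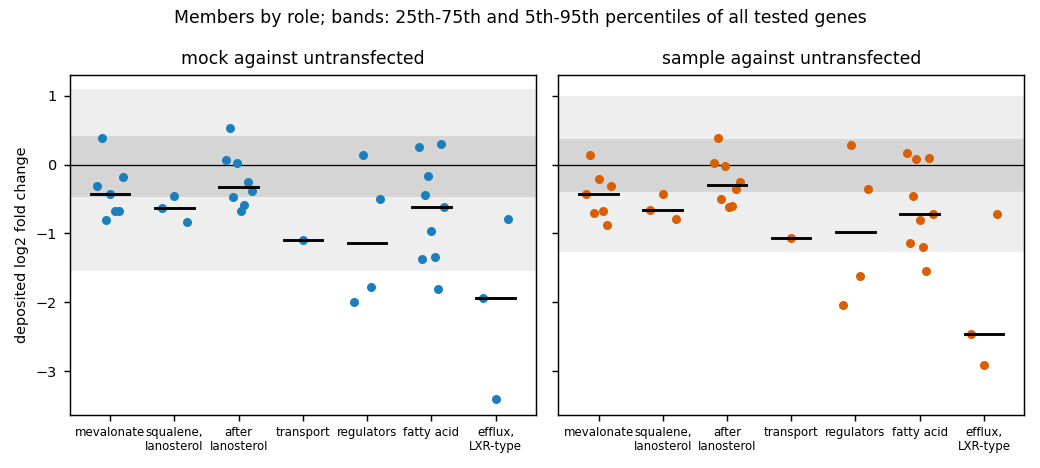
Deposited log2 fold changes (y axis) of the members grouped by role (x axis), with the median of each role as a black line, beside the 25th to 75th and 5th to 95th percentiles of all tested genes as bands. ABCG1, ABCA1, INSIG1, SREBF1 and FADS2 lie below the 5th percentile of all genes in both comparisons (-1.53 in mock and -1.25 in sample cells).

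A second list of 54 genes of lipid synthesis, transport and their control went both ways. Of all tested genes 27.5% were called as higher and 23.4% as lower in mock cells, and 20.2% and 17.1% in sample cells. Of the 53 listed genes with an adjusted p, 23 rose and 17 fell in mock cells and 18 rose and 13 fell in sample cells, with medians of 0.14 and 0.11, in the authors' deposited table. The genes of largest change in mock cells were PPARGC1B (1.86), a coactivator of metabolic genes, the sterol transporter GRAMD1B (1.71), IDH1 (-1.64), which yields NADPH, and the desaturase SCD5 (-1.49), as log2 values in the authors' deposited table. In sample cells they were PPARGC1B (1.64), IDH1 (-1.55), the carboxylase ACACB (-1.36) and SOAT1 (1.27), which esterifies cholesterol for storage, in the authors' deposited table. SOAT1 stood at 1572 and 1673 normalized read counts in the untransfected pair, 4510.4 and 4486 in the mock pair, and 3975 and 3961 in the sample pair, so every transfected library held more of it than every untransfected one. INSIG2, the other INSIG gene and named after its values were seen, had log2 fold changes of -0.59 (adjusted p = 0.00422) in mock and -0.44 (adjusted p = 0.149) in sample cells in the authors' deposited table.

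Sample and mock cells were then compared directly. None of the 35 genes was called by DESeq2 in the authors' deposited table, in which 0.0654% of 15285 genes were, and 1 of the 35, FADS2, was among 297 genes with an unadjusted p under 0.05. By limma on the recovered counts none of the 35 was called either, where 0% of 14891 genes were, and 2 members were among 644 genes with an unadjusted p under 0.05. The deposited fold changes of this comparison are shrunk strongly toward 0, so the limma differences are given with their 95% intervals. The interval lay within 0.5 log2 units of 0 for 29 of the 35, and went beyond it for HMGCS1, TM7SF2, ACSS2, FASN, ABCA1 and ABCG1. For each gene limma assumes the same spread in all groups, and the sample pair varied more (0.42, against 0.21 in mock cells). These intervals can therefore be too narrow. INSIG1 differed by -0.04 (-0.34 to 0.26), SREBF1 by 0.15 (-0.09 to 0.38), LSS by 0.06 (-0.14 to 0.26) and SCD by 0.16 (-0.03 to 0.34) between sample and mock cells.

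The 2 intervals that left out 0 were those of FADS2, 0.24 (0.02 to 0.47), and ABCA1, -0.72 (-1.39 to -0.06), both with a limma adjusted p of 0.96. ABCG1 differed by 0.47 (-0.03 to 0.98), so the 2 pumps had estimates of opposite sign. Neither difference passed the test, which does not show that the transfections act alike on them.

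**Figure D5:**
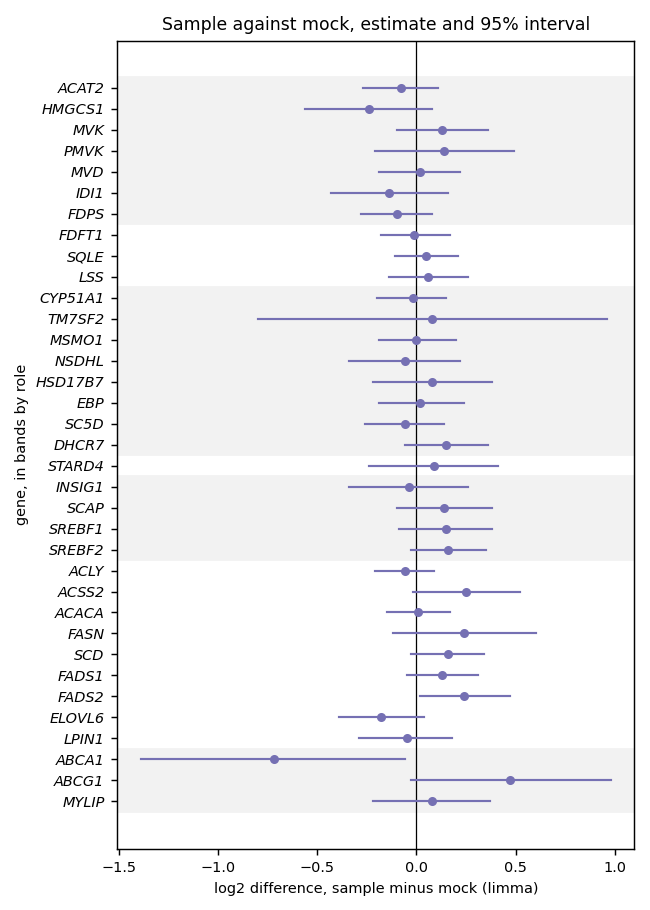
Log2 difference between sample and mock cells (x axis) for each of the 35 genes (y axis, in bands by role), as the limma estimate with its 95% interval. The intervals of 29 genes stay within 0.5 of 0, and those of ABCA1, ABCG1 and TM7SF2 are among the widest.

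Several smaller changes lay near the threshold, and their calls were lost in limma fits of the recovered counts that left out 1 library. In mock against untransfected cells HMGCS1 was called with all libraries (0.37, limma adjusted p = 0.0458) and not without any 1 of the 4 compared, at 0.29 to 0.44 (adjusted p of 0.072 to 0.22). ELOVL6 likewise went from 0.27 (limma adjusted p = 0.0211) to 0.25 to 0.28 (adjusted p of 0.0702 to 0.125). ACLY, 0.22 with all libraries, was at 0.20 without mock b, 0.22 without untransfected a and 0.23 without untransfected b (limma adjusted p = 0.0571, 0.0945 and 0.0864). PMVK, -0.47 with all libraries, was at -0.41 without mock a, -0.50 without untransfected a and -0.45 without untransfected b (limma adjusted p = 0.104, 0.052 and 0.0739). FDPS, -0.21 with all libraries, was at -0.15, -0.18 and -0.25 without the same 3 (limma adjusted p = 0.205, 0.195 and 0.0839). SC5D, -0.30 with all libraries, was at -0.28 without mock a and -0.25 without untransfected a (limma adjusted p = 0.0599 and 0.093). In sample against untransfected cells without untransfected a, FDPS was at -0.28 (limma adjusted p = 0.0782) against -0.31 with all libraries, and SC5D at -0.30 (adjusted p = 0.0699) against -0.36. The directions of these 6 genes held in each of these fits, which have 1 library fewer.

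Some values in sample cells moved with the library left out. Without sample b, HMGCS1 was higher than in untransfected cells (0.38, limma adjusted p = 0.00305), as were ACLY (0.21, adjusted p = 0.0419) and TM7SF2 (0.92, adjusted p = 0.0268), and PMVK (-0.41, adjusted p = 0.0228) and FASN (-0.25, adjusted p = 0.0256) were lower. Without sample a, by contrast, FASN (0.35, limma adjusted p = 0.00706) and SCAP (0.39, adjusted p = 0.0112) were higher than in untransfected cells. DHCR7 in sample against untransfected cells was at -0.34 without sample b (limma adjusted p = 0.00597), and not called without sample a, untransfected a or untransfected b, at -0.16, -0.30 and -0.26. Against mock cells, leaving out sample a gave 3 called members, FASN (0.56, limma adjusted p = 0.00247), FADS2 (0.41, adjusted p = 0.0341) and HMGCS1 (-0.53, adjusted p = 0.00541), among 710 higher and 129 lower genes of 14855. These values rest on the shallowest library alone, and the part of its depth was not tested.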

How the data were processed

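The 6 libraries of U2OS 2-6-3 cells fall into 3 groups of 2 by the labels. Directional libraries were made, per the labels' protocols. The submitters' processing notes list STAR, Bowtie, DESeq2 and build hg38, with neither tool versions nor the counting method stated there. The authors deposited 3 DESeq2 tables, each on 4 libraries, with a mean signal of normalized read counts, a log2 fold change (shrunk toward 0) with its error, the Wald score, and p-values before and after adjustment. Their adjusted p under 0.05 is the main test, since no raw counts were given.

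Since each mean signal adds whole counts divided by size factors, the counts of the 6 libraries were solved from the deposited means by lattice reduction. All 30527 entries with reads were solved within a relative tolerance of 1e-14, and 29944 of 29944 simulated entries were recovered. Median-of-ratios size factors gave the normalized read counts. limma-voom (limma 3.58.1, R 4.3.3) was run on genes with a mean of at least 10, with Benjamini-Hochberg adjustment. Simulated at a dispersion of 0.01, the calls included 92% of 2-fold increases and 83% of decreases to 0.5 for mock against untransfected (14896 genes), 91% and 86% for sample against untransfected (14882), and 82% and 76% for sample against mock (14889). The real sample pair was more variable, so the shares with sample cells can be too high.

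Symbols were matched for 39720 of 40029 entries (99.2%); entries without one held 0.0841% of reads. Entries of a gene can share reads: 19 members had several, whose log2 fold changes differed by at most 0.11. Exons of 13 members overlap another gene's on the opposite strand and of 3 on the same strand (GENCODE 29), and strand use in counting is not stated. Members, lists and motifs were chosen with earlier results of these data known. All members are named; full values go to the 8 largest called changes per comparison and 8 genes given whatever their result, and up to 4 genes of the second list are named per comparison. Promoters come from RefSeq. Python 3.11.15, numpy 2.4.6, pandas 2.3.3 and matplotlib 3.10.9 were used.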

Additional observations from a re-analysis of the deposited data

How the results depend on the processing

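Alternatives changed the threshold, the fold asked of a call, the filter, the entry, the centring, the test, the scaling and the libraries kept. Of all tested genes, the deposited test called 50.9% in mock and 37.3% in sample cells against untransfected cells. There limma with all libraries called 59% and 50.6%. Shares of all genes are not given for the fold rule or the fits without 1 library. The member counts under those settings therefore cannot be weighed against all genes. Called members in mock against untransfected cells numbered 31 in the deposited test, 30 by limma with all libraries, and 24 to 31 by limma without 1 library; asking for a log2 fold change of at least 0.5 in the deposited test left 19, all lower. In sample against untransfected cells they numbered 25, then 26, then 23 to 31 in the same order. In sample against mock cells they numbered 0, then 0, then 0 to 3. The medians of the fatty acid arm without 1 library ran from -0.74 to -0.57 in mock and from -0.80 to -0.63 in sample cells against untransfected cells, and from 0.02 to 0.22 between sample and mock cells. Those of the sterol arm ran from -0.52 to -0.42, from -0.55 to -0.41 and from -0.08 to 0.06 in the same order. With 1 library left, a group is assumed to vary like the others. FASN in sample against untransfected cells was 0.08 in the deposited test and 0.03 by limma with all libraries (neither called), and by limma -0.25 (called) without sample b and 0.35 (called) without sample a. HSD17B7 was not called there by its second entry (-0.65, adjusted p = 0.0844). Upper-quartile scaling moved the median of all genes to -0.09 in mock and -0.07 in sample cells against untransfected cells, and left no member called as higher. No paired analysis was possible because the files do not tell which library carries which replicate number. ABCA1 and TM7SF2, with 6 and 9 reads in sample b, are limited by depth.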
